A study of Rhamphochromis sp. 'chilingali' and Astatotilapia calliptera with 50 samples.

Results

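The Tc1/mariner transposons were the 206 families that the deposited table of transposable elements (TEs) places in the class DNA and in a superfamily whose name starts with TcMar, of 1609 TE families in all. The rule that picks the members reads the annotation and no counted values, and this group was taken up with earlier results of these data known. Of the 206, 180 were annotated as TcMar-Tc1, 9 as TcMar-Tc2, 7 as TcMar-ISRm11, 5 as TcMar-Tigger, 2 as TcMar-Fot1 and 1 as TcMar-Mariner, and 2 carried the plain name TcMar. The families came from repeat discovery in the Astatotilapia calliptera genome and carry the numbers that discovery gave them (such as rnd-5_family-1669, where rnd is the round of the search), so a name says nothing of function.

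Tc1/mariner elements are DNA transposons that move by cut and paste. A complete copy holds a gene for a transposase of the DDE/D type between short terminal inverted repeats, and the enzyme inserts the element at a TA dinucleotide, which is duplicated. They are widespread in fish genomes, mostly as decayed copies that no longer encode a working enzyme, and the Sleeping Beauty transposon used in vertebrate genetics was rebuilt from such remnants of salmonid fish. RNA counted on these families in an embryo can come from a transposon's own promoter or from copies that lie inside introns, untranslated regions or long noncoding RNAs of host genes, and the counts do not separate these sources.

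Whole single embryos of 2 Lake Malawi cichlids were sequenced, Rhamphochromis sp. 'chilingali' (RC, 26 embryos) and A. calliptera 'Mbaka' (AC, 24 embryos), all wild-type. According to the methods of the study, eggs were taken from females of breeding stocks just after fertilization and reared singly in well plates. RC embryos were taken at 4, 10, 15, 18, 20, 22, 26, 30 and 37 somites and AC embryos at 4, 10, 15, 18, 20, 22, 27 and 30 somites, with 3 embryos per species and stage except 2 RC embryos at 4 somites. The RC embryos of 26 somites were set against the AC embryos labelled 27 somites. All embryos of a species came from a single egg clutch, so species and clutch cannot be told apart, and p-values measure the spread between sibling embryos. Reads of both species were mapped to the A. calliptera genome, and the part that copies or sequence present only in RC played in differences between the species was not tested. In whole embryos, a change in the share of a cell type and a change in RNA per cell cannot be told apart.

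Between 778268 and 1345144 reads per embryo were counted on TEs, of which 72381 to 118692 were on Tc1/mariner families, beside 17619762 to 27454591 reads on genes. The values are counts that the authors divided by a size factor for each embryo (normalized counts), and 1 read was worth close to 1 normalized count. Between 187 and 198 of the 206 families had a read in any 1 embryo, and 1 family had none in all 50. A count of 3 reads, the upper limit when none is seen, equalled 2.42 to 3.89 normalized counts, and such limits cover counting error only. The gene entry named sox10, a neural crest gene, ranged over 13.3 to 1146 normalized counts in RC and 0 to 914 in AC. The paper describes the paralogs sox10a and sox10b in cichlids, with sox10a also outside the neural crest. Which paralog this entry holds was not checked here. The AC embryos of 4 somites varied most among themselves, with a median SD over the Tc1/mariner families tested of 0.238 on the log2 scale, against 0.109 to 0.176 in the other groups.

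Counts on Tc1/mariner families were uneven. The 5 families with the highest mean held 18.7% of all Tc1/mariner normalized counts and the first 20 held 49.6%, while the median family averaged 144 normalized counts over the 50 embryos and 33 families averaged under 10. TcMar-Tc1 accounted for 86.1% of the counts and TcMar-Tc2 for 10.0%, with 9 families. TcMar-Mariner, TcMar-ISRm11, TcMar-Fot1, TcMar and TcMar-Tigger held 1.13%, 1.04%, 0.632%, 0.549% and 0.522% of the counts. The lengths and copy numbers of the families were not used here, so levels are compared between embryos and not between families.

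The summed Tc1/mariner count overlapped between embryos of 4 and 30 somites in each species, and some other stages stood apart. In RC it averaged 101873 ± 4120 normalized counts at 4 somites (SD, n = 2), 103898 ± 4109 at 30 somites (n = 3) and 109358 ± 2859 at 37 somites (n = 3). In AC it averaged 101587 ± 2763 at 30 somites and 96918 ± 7625 at 4 somites (n = 3 each), with its lowest mean, 88604 ± 2140, at 10 somites. AC embryos of 10 somites (86975 to 91028) all lay below those of 30 somites (98791 to 104316). RC embryos of 37 somites (107563 to 112655) all lay above those of 4 somites (98960 to 104787). The sum of all TEs moved further, with means of 1245900, 973569 and 901294 normalized counts in RC at 4, 30 and 37 somites, and of 819188 at 30 somites, against 1106440 at 4 somites, in AC. In RC its highest mean, 1252280, was at 20 somites. The Tc1/mariner share of TE counts was therefore larger at the later stages in both species. It was 8.22% ± 0.722 at 4 somites, 10.7% ± 0.772 at 30 somites and 12.1% ± 0.192 at 37 somites in RC, and 12.4% ± 0.0294 at 30 somites, against 8.80% ± 0.517 at 4 somites, in AC.

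At 30 somites the share in the 3 RC embryos, 9.87% to 11.4%, lay below that in the 3 AC embryos, 12.4% in each. The sums overlapped, at 100498 to 108464 normalized counts in RC and 98791 to 104316 in AC. The other DNA transposons also held more of the TE counts at the later stage. The hAT families (140 in the table) held 8.75% at 30 somites and 7.45% at 4 somites in RC, and 9.85% at 30 somites and 7.86% at 4 somites in AC. The remaining 114 DNA families held 8.91% at 30 somites and 7.99% at 4 somites in RC, and 10.0% and 9.12% at the same stages in AC.

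**Figure D1:**
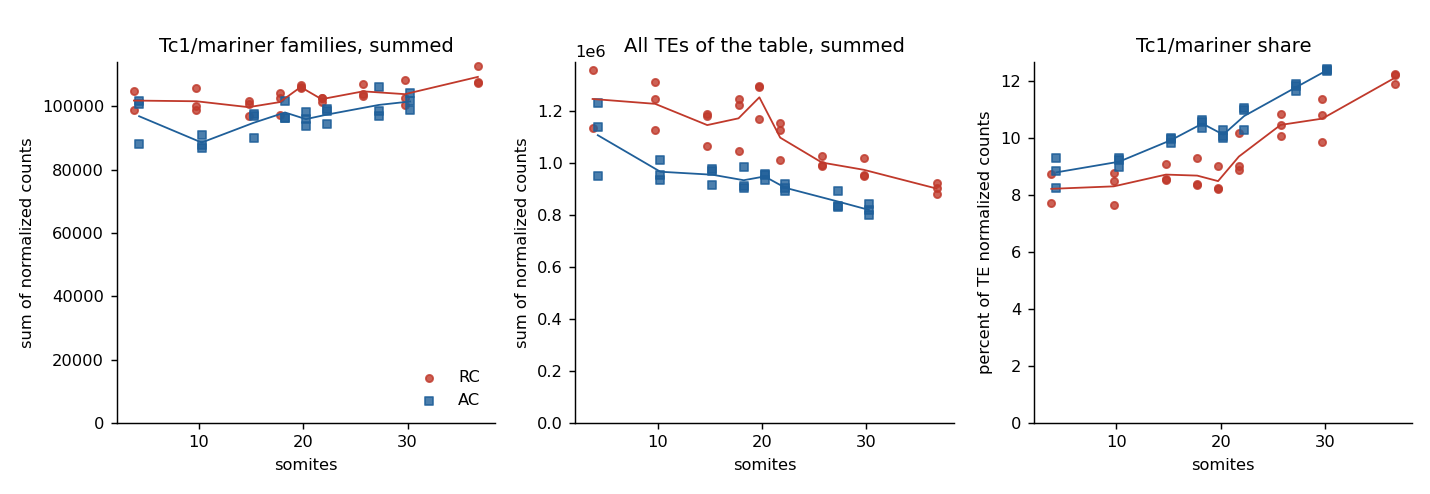
Summed normalized counts of the 206 Tc1/mariner families (left), summed normalized counts of all 1609 TE families (middle) and the Tc1/mariner percentage of TE counts (right) against somite number. Points are single embryos (RC circles, AC squares, set slightly apart), lines join group means, and all axes start at 0. The Tc1/mariner sums stay between 86975 and 112655 while the TE sums are lower at 30 than at 4 somites in both species (in RC with the highest mean at 20 somites), and the share reaches 12.1% in RC at 37 somites and 12.4% in AC at 30 somites.

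The first comparison asked which families differed between the species when the 8 shared stages were averaged. On log2 values with 1 added, limma tested 1503 TE families in which 2 or more embryos held at least 10 normalized counts, 187 of them Tc1/mariner. A family was called at a Benjamini-Hochberg adjusted p under 0.05 over all TEs tested and a difference of more than 1.5-fold either way (fold changes are RC over AC, on the log2 scale). In the mean over stages 16 Tc1/mariner families were higher in RC and 6 were lower. Among all TEs tested 13.7% were called higher and 4.72% lower. The 8.56% of Tc1/mariner families called higher and the 3.21% called lower were thus both below the background. This was not particular to Tc1/mariner, since of 134 hAT families 13 were higher and 3 lower, also below the background both ways. Of the 111 remaining DNA families 19 were higher, above the background, and 3 lower, below it. Differences between these groups of families were not tested. The median log2 fold change was 0.06 for Tc1/mariner families and also 0.06 for all TEs. Without the fold threshold 103 families passed, 75 higher and 28 lower, so most of those past the p threshold were short of the fold threshold. The share of all TEs past the adjusted p alone is not given here, so the 103 have no background beside them. Differences past an unadjusted limma p of 0.05 were also common among TEs at large, at 978 of 1503, beside 111 of the 187 Tc1/mariner families.

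The 19 families that did not pass the filter on low values were all TcMar-Tc1, and none averaged above 3.34 normalized counts. A further 7 of the 187 reached the minimum in only 1 species, and 3 of these were called (rnd-1_family-648, rnd-1_family-157 and rnd-1_family-461). Of the 22 called families 11 averaged under 50 normalized counts. The deposited scaling mattered for the split. When each embryo was scaled to its TE total, the median of all TEs moved by -0.28 and 9 families were called higher and 12 lower in RC, and 9 of the 16 and all 6 of the original calls were among them. With quantile normalization, which moved that median by -0.12, 12 were higher and 8 lower. The shares of all TEs called under these scalings are not given here, so the counts have no background beside them.

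**Figure D2:**
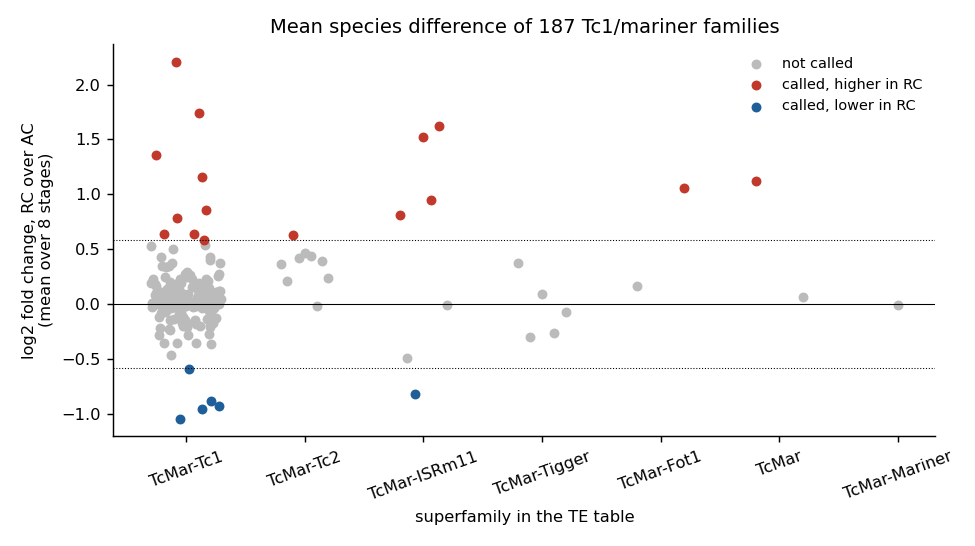
Log2 fold change (RC over AC, mean over 8 stages) of the 187 Tc1/mariner families tested, by superfamily, with points spread sideways to separate them. Red points are the 16 families called higher in RC, blue the 6 called lower, grey those not called, and dotted lines mark the threshold of 1.5-fold. TcMar-ISRm11 has 4 of 7 families called higher and 1 lower, and TcMar-Tc1 has 9 higher and 5 lower of 161. Of all TEs tested 13.7% were called higher and 4.72% lower.

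The calls are given here by superfamily, beside 13.7% of all TEs tested called higher and 4.72% lower. All superfamilies but TcMar-Tc1 held at most 9 families, and differences between superfamilies were not tested. TcMar-Tc1 had 9 families higher in RC and 5 lower of 161 tested, TcMar-ISRm11 had 4 higher and 1 lower of 7, TcMar-Tc2 had 1 higher of 9, and TcMar-Fot1 and the plain TcMar had 1 higher of 2 each. None of the 5 TcMar-Tigger families nor the single TcMar-Mariner family was called. The TcMar-Mariner family, rnd-4_family-182, lay between 1016 and 1234 normalized counts in RC (median 1146), against between 1031 and 1253 in AC (median 1136), with a log2 fold change of -0.01 ± 0.02 (SE, adjusted p = 0.743).

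The largest difference was in rnd-5_family-1669, a TcMar-Tc1 family, which lay between 22.9 and 145 normalized counts in RC (median 82.8), against between 4.88 and 25.6 in AC (median 13.9), over all embryos of each species. The species overlapped in a narrow range around 25 normalized counts. Its log2 fold change was 2.21 ± 0.17 (SE, adjusted p = 7.72e-14), and it was called at 7 of 8 stages. RC ranges and medians, for this and the other families, include the embryos of 37 somites, which the species fold changes leave out. The next TcMar-Tc1 family, rnd-1_family-500, lay between 36.6 and 113 normalized counts in RC (median 81.3), against between 4.87 and 75.5 in AC (median 21.1), and its fold change was 1.74 ± 0.19 (SE, adjusted p = 5.55e-10). One AC embryo of 4 somites, at 75.5, stood above the other AC embryos, which reached 38.8. Family rnd-1_family-559 lay between 42.6 and 164 normalized counts in RC (median 85.6), against between 12.5 and 84.7 in AC (median 33.9), with a fold change of 1.36 ± 0.13 (SE, adjusted p = 1.13e-11) and calls at 7 stages. Family rnd-1_family-334 was lower in count, between 8.67 and 43.3 normalized counts in RC (median 25.8), against between 0.983 and 29.5 in AC (median 12.0), and its fold change was 1.16 ± 0.18 (SE, adjusted p = 9.89e-07). The ranges of these families overlapped across stages, and the RC median was above the AC median in each.

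The superfamily TcMar-ISRm11, which is named after a bacterial insertion sequence, held families that differed in both directions. Family rnd-5_family-1177 lay between 37.2 and 76.8 normalized counts in RC (median 49.6), against between 0 and 37.2 in AC (median 17.2). Its lowest RC embryo was thus level with its highest AC embryo to the digits shown, and every RC embryo was above every AC embryo. The fold change was 1.62 ± 0.20 (SE, adjusted p = 9.24e-09). Every RC embryo also exceeded every AC embryo in 2 more called families, rnd-1_family-314 (TcMar-Tc2) and rnd-1_family-417 (TcMar-Tc1), and in no other Tc1/mariner family tested. Among all TEs tested 2.33% were separated in this direction and 0.931% in the other, where no Tc1/mariner family was.

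Family rnd-1_family-648, also TcMar-ISRm11, was counted at low levels, between 2.84 and 26.7 normalized counts in RC (median 8.75), against between 0 and 5.77 in AC (median 2.78), and its mean fold change was 1.52 ± 0.21 (SE, adjusted p = 7.95e-08). The family passed the filter on low values through its RC embryos alone, so its call is not independent of that filter. Its RC mean was above its AC mean at each of the 8 stages. The means were 4.79 in RC and 3.18 in AC at 4 somites, and 23.5 and 2.91 at 30 somites. The test of variation with stage described below did not pass for this family. At 30 somites the RC embryos had 20.1, 26.7 and 23.8 normalized counts and the AC embryos 3.93, 0 and 4.79, and the RC embryos of 37 somites had 18.3, 22.1 and 19.0. Before 18 somites both species stayed under 10. Family rnd-1_family-472, the most abundant of this superfamily, lay between 356 and 838 normalized counts in RC (median 601), against between 199.7 and 455 in AC (median 339.9), and its fold change was 0.81 ± 0.04 (SE, adjusted p = 2.08e-18) with calls at 7 stages. Family rnd-5_family-1088, which like rnd-1_family-472 was named after its values were seen, lay between 48.2 and 321 normalized counts in RC (median 199), against between 51.9 and 149.8 in AC (median 88.7), and its fold change was 0.95 ± 0.16 (SE, adjusted p = 2.49e-06). RC siblings of this family differed widely within stages. The SD among embryos of 1 stage ran from 6.33 to 114 in RC and from 4.99 to 37.6 in AC. In the opposite direction, rnd-1_family-634 lay between 23.3 and 78.1 normalized counts in RC (median 41.9), against between 52.9 and 108 in AC (median 75.5), with a fold change of -0.82 ± 0.10 (SE, adjusted p = 1.80e-09) and calls at 5 stages. The other 2 families were not called, with fold changes of -0.50 (rnd-1_family-586) and -0.01 (rnd-5_family-1178).

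The other families lower in RC were TcMar-Tc1 families of modest count. Family rnd-1_family-69 lay between 12.3 and 86.6 normalized counts in RC (median 48.0), against between 17.6 and 156 in AC (median 101), and its fold change was -0.93 ± 0.16 (SE, adjusted p = 7.56e-06). Family rnd-1_family-592 lay between 2.73 and 27.4 normalized counts in RC (median 15.4), against between 12.9 and 49.9 in AC (median 28.4), with a fold change of -0.95 ± 0.16 (SE, adjusted p = 4.41e-06). Family rnd-1_family-157 lay between 0.972 and 8.76 normalized counts in RC (median 3.76), against between 3.06 and 18.8 in AC (median 7.96), with a fold change of -1.04 ± 0.15 (SE, adjusted p = 2.98e-07), and no RC embryo reached 10. It thus passed the filter on low values through its AC embryos alone, as did rnd-1_family-461 below, so neither call is independent of that filter. These 3 were lower in RC at 8, 8 and 7 of the 8 stages by sign, in the order rnd-1_family-157, rnd-1_family-592 and rnd-1_family-69. The last 2 of the group were close to the thresholds. Family rnd-1_family-461, with 8 RC and 5 AC embryos at 0, had a fold change of -0.88 ± 0.35 (SE, adjusted p = 0.0263), and the call was lost with either other pseudocount and without RC replicate 3, AC replicate 1 or AC replicate 3 (adjusted p = 0.124, 0.103 and 0.0629). Family rnd-1_family-359 had a fold change of -0.59 ± 0.22 (SE, adjusted p = 0.0182), and 8 of the alternatives, DESeq2 and edgeR among them, placed it short of a threshold.

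Other called families, named after their values were seen, had smaller errors beside their fold changes than most of those above. The plain TcMar family rnd-1_family-70 lay between 465 and 819.7 normalized counts in RC (median 650.1), against between 229.9 and 522 in AC (median 285), with a fold change of 1.12 ± 0.05 (SE, adjusted p = 1.73e-20), and it alone among Tc1/mariner families (0.535%) was called higher in RC at all 8 stages, against 3.33% of all TEs tested. The AC value of 522 came from an embryo of 4 somites, and no other AC embryo exceeded 360. The TcMar-Tc2 family rnd-1_family-314 lay between 1146 and 1750 normalized counts in RC (median 1355), against between 741 and 1112 in AC (median 880.5), with a fold change of 0.63 ± 0.03 (SE, adjusted p = 4.34e-19). The TcMar-Tc1 family rnd-1_family-417 lay between 628 and 817 normalized counts in RC (median 751), against between 357 and 621 in AC (median 479), with a fold change of 0.63 ± 0.05 (SE, adjusted p = 1.24e-14). The TcMar-Fot1 family rnd-1_family-754, in a superfamily named after a fungal transposon, lay between 34.7 and 70.8 normalized counts in RC (median 51.6), against between 10.7 and 42.9 in AC (median 24.2), with a fold change of 1.06 ± 0.12 (SE, adjusted p = 5.90e-10).

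The 5 most abundant families were not among those called. Family rnd-6_family-1893 (TcMar-Tc1) lay between 4489 and 5853 normalized counts in RC (median 5309), against between 3924 and 5726 in AC (median 5020), a fold change of 0.09 ± 0.02 (SE, adjusted p = 0.00208). Family rnd-3_family-393 (TcMar-Tc1) lay between 3240 and 4448 normalized counts in RC (median 3852), against between 2890 and 4123 in AC (median 3630), a fold change of 0.08 ± 0.02 (SE, adjusted p = 0.0018). Both passed the p threshold at differences of well under the fold required, and their direction was reversed when embryos were scaled to the TE total or by quantiles. The TcMar-Tc2 family rnd-1_family-54 came nearest to a call, at 0.44 ± 0.05 (SE, adjusted p = 1.07e-09), and lay between 3064 and 4464 normalized counts in RC (median 3767), against between 2158 and 5211 in AC (median 2717). A single AC embryo of 4 somites made up its upper end, since the next AC embryo had 3263. Family rnd-1_family-24 (TcMar-Tc1) had 0.25 ± 0.03 (SE, adjusted p = 3.37e-09). In rnd-4_family-1035 (TcMar-Tc1) the difference was -0.02 ± 0.03 (SE, adjusted p = 0.508), with medians of 3304 in RC and 3291 in AC.

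Of the 9 TcMar-Tc2 families, 8 were higher on average in RC, with fold changes of 0.21 to 0.63, and rnd-1_family-67 had -0.02. Of these 8, 7 were above 0 at each of the 8 stages, and only rnd-1_family-314 passed the fold threshold in the mean. Of the 187 Tc1/mariner families tested, 118 were above 0 in the mean. At all 8 stages 24.6% of them were above 0, against 26.1% of all TEs. Scaling to the TE total moved the median of all TEs by -0.28, and the TcMar-Tc2 fold changes under it are not given here. The summed count of the 9 families averaged 11123 ± 1245 normalized counts in the 26 RC embryos and 8934 ± 1195 in the 24 AC embryos (SD). The TcMar-ISRm11 sum averaged 1220 ± 138 in RC and 849 ± 104.8 in AC. The TcMar-Tc1 sum differed less beside its spread, at 88140 ± 3928 in RC and 84344 ± 4850 in AC, as did TcMar-Tigger at 520 ± 50.4 in RC and 528 ± 63.1 in AC. The sums mix stages, were not tested, and were set by their most abundant families.

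The second comparison set the species against each other at each stage. At 4 somites 15 Tc1/mariner families were higher in RC and 4 lower, with 14.3% and 3.73% of all TEs called in these directions. For 10 somites the counts were 12 and 4, beside 13.8% and 4.32% of all TEs. At 15 somites 13 Tc1/mariner families were higher in RC and 6 lower, with 12% and 5.32% of all TEs called in these directions. For 18 somites the counts were 9 and 3, beside 11.5% and 4.13% of all TEs. At 20 somites 14 Tc1/mariner families were higher in RC and 5 lower, with 11.6% and 3.93% of all TEs called in these directions. For 22 somites the counts were 10 and 3, beside 8.18% and 3.79% of all TEs. At 26 somites (27 in AC) 7 Tc1/mariner families were higher in RC and 2 lower, with 9.45% and 3.13% of all TEs called in these directions. For 30 somites the counts were 11 and 2, beside 10.4% and 3.59% of all TEs. The share of Tc1/mariner families called ran from 3.74% to 8.02% for higher and stayed below the background at every stage. Calls for lower ran from 1.07% to 3.21%, also below. In all, 46 families were called at 1 or more stages, 28 higher and 18 lower, and none in both directions. These were 15% and 9.63% of the families tested, against 24.2% and 11.6% of all TEs, of which 0.599% were called in both directions. A single stage made up the calls of 8 higher families (4.28%, against 6.45% of all TEs) and of 12 lower families (6.42%, against 5.19%). The 6 families called higher at 6 or more stages were rnd-1_family-70, rnd-1_family-472, rnd-1_family-559, rnd-5_family-1669, rnd-1_family-412 and rnd-1_family-500, or 3.21%, against 6.25% of all TEs. By sign alone, 46 families (24.6%) were above 0 and 10 (5.35%) below 0 at all 8 stages, with 26.1% and 10.3% of all TEs on these sides.

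Single embryos moved some of these counts. At 4 somites the 19 calls became 29 without AC replicate 1 and 9 without RC replicate 1, which leaves a single RC embryo that is assumed to vary like the other groups, and 3 when the stage was fitted alone. At 18 somites the 12 calls fell to 5 without RC replicate 3, and at 26 somites the 9 calls fell to 5 without RC replicate 2. The mean over stages was steadier, with 19 to 22 calls when any replicate number was left out of a species, and 23 without the embryos of 4 somites. Scaling to the TE total, which moved the median of all TEs in the mean over stages by -0.28, turned the balance at most stages. It gave 4 higher and 26 lower at 18 somites, and 8 higher and 22 lower at 20 somites. The shares of all TEs called under the alternatives of this paragraph are not given here, so these counts have no background beside them.

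**Figure D3:**
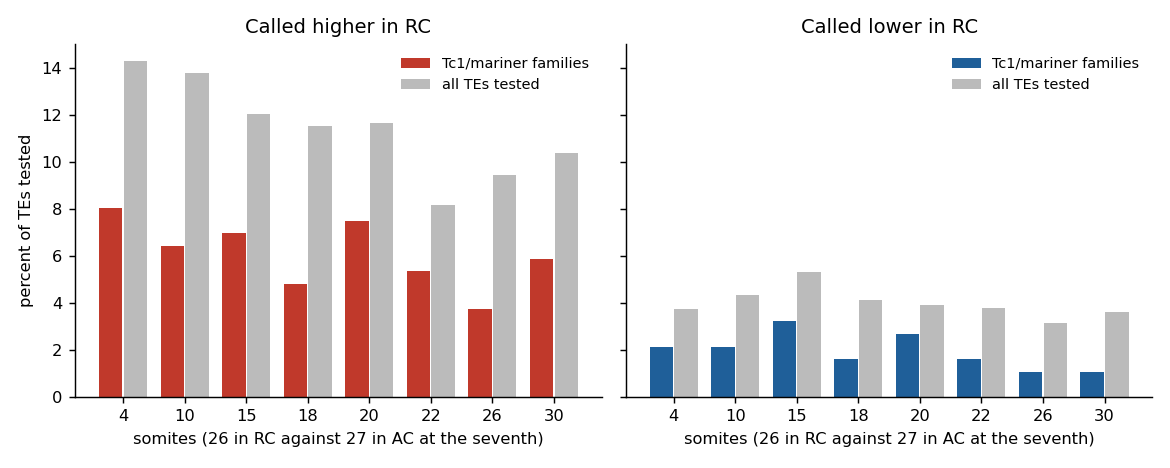
Percentage of TEs called higher in RC (left) and lower in RC (right) at each stage, for the 187 Tc1/mariner families tested (coloured bars) and for all 1503 TEs tested (grey bars). The coloured bars are shorter than the grey bars at all 8 stages in both directions, between 3.74% and 8.02% for higher and between 1.07% and 3.21% for lower.

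The third comparison followed each species from 4 to 30 somites. By the somite numbers of the paper, this span reaches the end of somitogenesis in AC and stops before it in RC. The changes in the 2 species thus do not cover equal parts of development. In RC, 9 Tc1/mariner families were higher at 30 somites (4.81%) and 5 lower (2.67%), while 2.73% of all TEs were higher and 8.38% lower. In AC, 26 families were higher at 30 somites (13.9%) and 11 lower (5.88%), with 9.51% of all TEs called in each direction. In both species the percentage called higher was above that of all TEs and the percentage called lower below it. The median log2 change was 0.04 for Tc1/mariner families and -0.05 for all TEs in RC, and 0.20 and 0.05 in AC. Among the other DNA transposons in AC, 9 of 134 hAT families were higher and 3 lower, and 6 of 111 remaining DNA families were higher and 17 lower. In RC these were 4 and 3 of 134, and 2 and 13 of 111. Differences between these groups of families were not tested.

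These counts rested partly on the youngest embryos. From 10 to 30 somites, a comparison added after the values were seen, 3 families were higher and 2 lower in RC, and 10 higher and 1 lower in AC. The median log2 change of the Tc1/mariner families over this span was 0.07 in RC and 0.20 in AC. Compared with the span from 4 somites, the median of all TEs moved by 0.05 in RC and 0.06 in AC. The 14 RC calls became 5 without RC replicate 1 and 8 without RC replicate 2 or 3. Without RC replicate 1 or 3 a single RC embryo of 4 somites was left, and its spread was taken from the other groups of the fit, here and in the adjusted p-values of single families without a replicate. In AC the 37 calls ranged from 28 to 40 when a replicate number was left out. Scaling to the TE total moved the median of all TEs by 0.34 in RC and 0.42 in AC and gave 34 higher and 2 lower in RC and 88 higher and 6 lower in AC. Of the families called lower, 2 of 5 in RC and 6 of 11 in AC were still called under that scaling. The shares of all TEs called from 10 to 30 somites and under that scaling are not given here, so these counts have no background beside them.

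**Figure D4:**
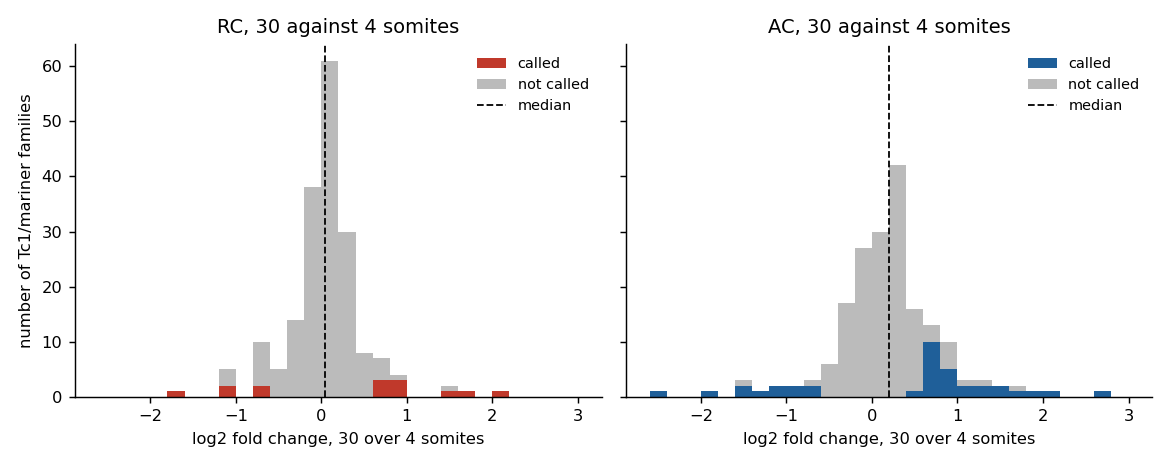
Distribution of the log2 fold change from 4 to 30 somites over the 187 Tc1/mariner families tested, in RC (left) and AC (right). Coloured parts of the bars are called families, grey parts are not called, and dashed lines are medians. The median is 0.04 in RC and 0.20 in AC, with 9 families called higher and 5 lower in RC and 26 higher and 11 lower in AC.

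In both species 4 families (2.14%) were called higher at 30 somites, against 1.53% of all TEs tested. The clearest was rnd-4_family-762 (TcMar-Tc1). In RC it had 382, 372 and 311 normalized counts at 30 somites, against 186 and 219 at 4 somites, a log2 change of 0.81 ± 0.13 (SE, adjusted p = 2.45e-05). In AC it had 292, 317 and 318 normalized counts at 30 somites, against 203, 164 and 162 at 4 somites, a change of 0.81 ± 0.12 (SE, adjusted p = 6.56e-07). The stages did not overlap in either species, and the change had the same size in both. Family rnd-1_family-576 (TcMar-Tc1) behaved likewise. RC embryos had 159, 143 and 128 normalized counts at 30 somites, against 83.2 and 77.0 at 4 somites, which was a log2 change of 0.82 ± 0.18 (SE, adjusted p = 0.00104). AC embryos had 111, 152 and 153 normalized counts at 30 somites, against 75.5, 84.4 and 76.7 at 4 somites, which was a change of 0.79 ± 0.16 (SE, adjusted p = 2.22e-04). Family rnd-1_family-226 (TcMar-Tc1) was higher by more in AC. Its RC values were 101, 109.7 and 71.4 normalized counts at 30 somites, against 52.5 and 62.3 at 4 somites, and the log2 change was 0.69 ± 0.23 (SE, adjusted p = 0.032). Its AC values were 115, 135 and 114 normalized counts at 30 somites, against 43.3, 35.0 and 40.2 at 4 somites, and the log2 change was 1.60 ± 0.21 (SE, adjusted p = 1.04e-07). Its RC call was lost without RC replicate 1 or 2 (adjusted p = 0.406 and 0.162), and its RC embryos of 37 somites had 132, 129 and 131. The TcMar-ISRm11 family rnd-1_family-586 had the largest log2 increase of the Tc1/mariner families tested in AC. In RC it had 34.7, 26.7 and 35.2 normalized counts at 30 somites, against 7.66 and 11.3 at 4 somites, a log2 change of 1.68 ± 0.49 (SE, adjusted p = 0.0131). In AC it had 23.6, 48.4 and 28.7 normalized counts at 30 somites, against 7.37, 5.19 and 1.22 at 4 somites, a change of 2.77 ± 0.44 (SE, adjusted p = 4.91e-06). Its counts were low, and the RC call was lost without RC replicate 1 or 3 (adjusted p = 0.255 and 0.0948).

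Another 4 families (2.14%) were called lower at 30 somites in both species, against 4.39% of all TEs tested, and 2 of them were TcMar-Tc2. Family rnd-1_family-150 (TcMar-Tc2) was the most abundant. RC embryos had 1923, 2089 and 1825 normalized counts at 30 somites, against 5291 and 3559 at 4 somites, which was a log2 change of -1.16 ± 0.13 (SE, adjusted p = 2.76e-08). AC embryos had 1866, 1872 and 1956 normalized counts at 30 somites, against 4004, 3519 and 3447 at 4 somites, which was a change of -0.94 ± 0.11 (SE, adjusted p = 2.34e-08). Most of the fall was over by 22 somites, where RC embryos had 2309, 2154 and 1946 and AC embryos 2153, 2097 and 2034. The other TcMar-Tc2 family was rnd-1_family-81. Its RC values were 472, 439.6 and 648.1 normalized counts at 30 somites, against 944 and 699 at 4 somites, and the log2 change was -0.67 ± 0.20 (SE, adjusted p = 0.0169). Its AC values were 437, 342 and 362 normalized counts at 30 somites, against 687, 1014 and 755 at 4 somites, and the log2 change was -1.09 ± 0.18 (SE, adjusted p = 9.06e-06). In RC this call was lost without RC replicate 1 or 2 (adjusted p = 0.459 and 0.0934). Family rnd-1_family-412 (TcMar-Tc1) fell in both species while staying higher in RC. In RC it had 162, 216 and 197 normalized counts at 30 somites, against 454 and 386 at 4 somites, a log2 change of -1.13 ± 0.26 (SE, adjusted p = 0.00126). In AC it had 111, 109 and 94.9 normalized counts at 30 somites, against 365, 252 and 309 at 4 somites, a change of -1.53 ± 0.23 (SE, adjusted p = 1.62e-06). Without RC replicate 1 the RC call was lost (adjusted p = 0.101). Its species difference in the mean over stages was 0.85 ± 0.08 (SE, adjusted p = 2.33e-11). Family rnd-1_family-585 (TcMar-Tc1) was near the limit of counting. RC embryos had 5.48, 2.76 and 2.86 normalized counts at 30 somites, against 10.9 and 19.9 at 4 somites, which was a log2 change of -1.80 ± 0.60 (SE, adjusted p = 0.0321). AC embryos had 3.93, 1.86 and 2.87 normalized counts at 30 somites, against 18.4, 15.6 and 9.74 at 4 somites, which was a change of -1.99 ± 0.54 (SE, adjusted p = 0.00381). Leaving out any RC replicate ended its RC call (adjusted p = 0.0684, 0.118 and 0.450).

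No Tc1/mariner family was called higher at 30 somites in one species and lower in the other. The share of all TEs with such opposite calls is not given here, so this has no background beside it. The TcMar-Tc2 sum averaged 9916 ± 442 normalized counts at 30 somites and 13737 ± 1759 at 4 somites in RC, and 8599 ± 261 at 30 somites and 11599 ± 1692 at 4 somites in AC. The TcMar-Tc1 sum went the other way, with 89812 ± 3509 at 30 somites and 84050 ± 2062 at 4 somites in RC, and 89564 ± 2442 and 81524 ± 5941 in AC. Of the 187 families tested 161 were TcMar-Tc1. In AC, 24 of the 26 families called higher were TcMar-Tc1. Several of these were abundant, among them rnd-4_family-27, named after its values were seen. Its RC values were 1897, 1695 and 1691 normalized counts at 30 somites, against 1381 and 1279 at 4 somites, and the log2 change was 0.40 ± 0.08 (SE, adjusted p = 2.19e-04). Its AC values were 1561, 1766 and 1701 normalized counts at 30 somites, against 1019, 1132 and 1160 at 4 somites, and the log2 change was 0.60 ± 0.07 (SE, adjusted p = 1.12e-08). Both changes passed the p threshold, and only the AC change passed the fold threshold. The largest fall in AC was in the plain TcMar family rnd-6_family-430, also named after its values were seen. In RC it had 53.0, 61.7 and 44.7 normalized counts at 30 somites, against 149.9 and 84.8 at 4 somites, a log2 change of -1.08 ± 0.49 (SE, adjusted p = 0.131). In AC it had 53.1, 43.7 and 10.5 normalized counts at 30 somites, against 179.5, 177 and 146 at 4 somites, a change of -2.47 ± 0.44 (SE, adjusted p = 2.94e-05).

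The fourth comparison asked whether the species difference varied with stage, by a moderated F-test over the 8 stages in the same limma fit. It passed for 2 of the 187 Tc1/mariner families (1.07%), against 2.33% of all TEs tested. In rnd-5_family-648 (TcMar-Tc1) the RC embryos of 4 somites had 1623 and 1664 normalized counts, against 1978, 2216 and 2106 in AC. At 30 somites the RC embryos had 1502, 1593 and 1535 and the AC embryos 1445, 1485 and 1361. The difference passed the p threshold at 4 somites alone, with a log2 fold change of -0.35 ± 0.07 (SE, adjusted p = 1.92e-04) at 4 somites and 0.11 ± 0.06 (SE, adjusted p = 0.253) at 30 somites. The adjusted p of the F-test was 0.0387.

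In rnd-6_family-3038 (TcMar-Tc1) the RC embryos of 4 somites had 568 and 674 and the AC embryos 1075, 1207 and 928. At 15 somites the RC embryos had 439, 457 and 413 and the AC embryos 894, 791 and 800.2. The difference was smaller at 22 somites, with 594, 547 and 541 in RC and 695, 556 and 669 in AC. The log2 fold change was -0.78 ± 0.13 (SE, adjusted p = 1.98e-05) at 4 somites, -0.92 ± 0.12 (SE, adjusted p = 1.02e-07) at 15 somites and -0.19 ± 0.12 (SE, adjusted p = 0.305) at 22 somites, and the last did not pass. The adjusted p of the F-test was 0.0387. Neither family passed with any replicate number left out of a species. The count of 2 became 0 without RC replicate 1, 2 or 3 or AC replicate 2, and 1 without AC replicate 3, while without AC replicate 1 it stayed at 2 with other families in place of both.

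**Figure D5:**
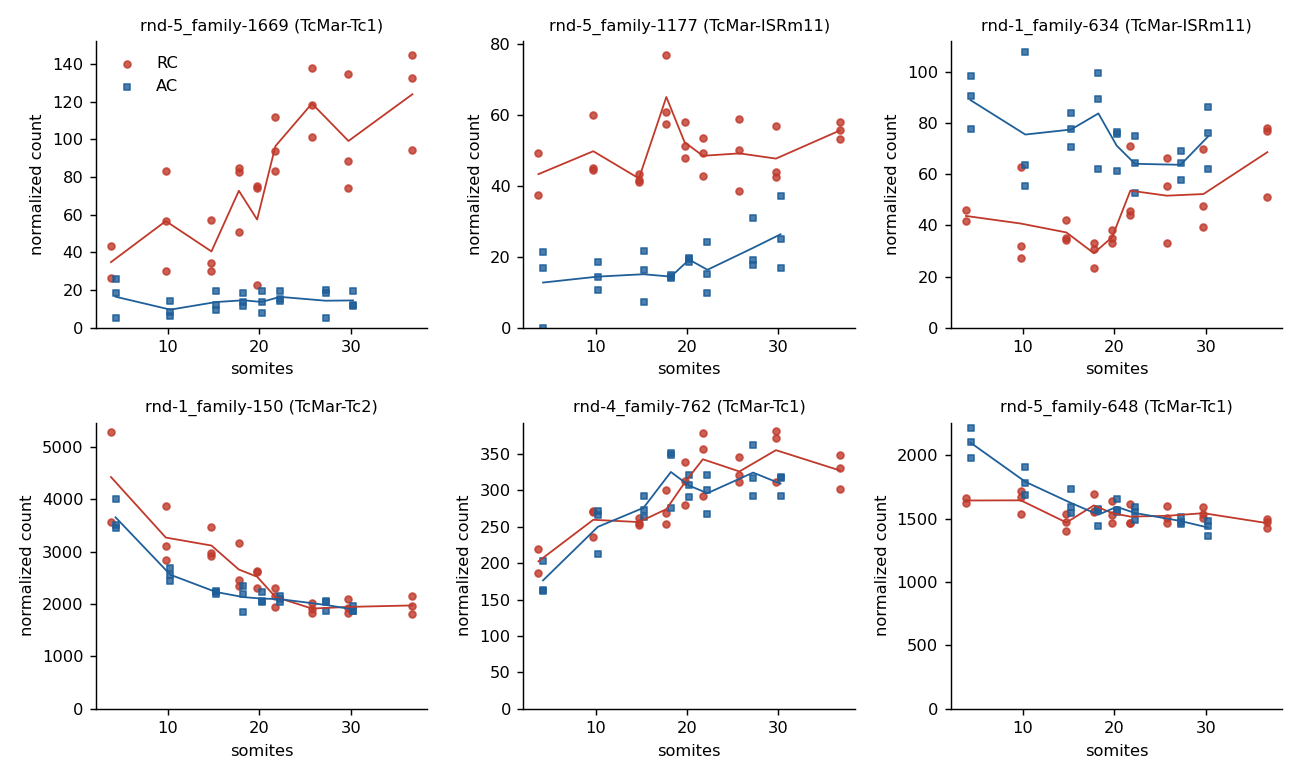
Normalized counts of 6 Tc1/mariner families in every embryo against somite number (RC circles, AC squares, set slightly apart, lines joining group means, axes starting at 0). The top row shows families that differed between the species, with every RC embryo of rnd-5_family-1177 above every AC embryo and rnd-1_family-634 lower in RC. The bottom row shows a family that fell with stage in both species (rnd-1_family-150), a family that rose in both (rnd-4_family-762) and a family in which RC was lower at 4 somites (rnd-5_family-648).

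The last comparison took RC from 30 to 37 somites, with all 50 embryos in the limma fit. No Tc1/mariner family was called, and 0% of all 1503 TEs tested were. At an unadjusted p under 0.05 there were 13 Tc1/mariner families and 114 TEs, and the lowest adjusted p of a Tc1/mariner family was 0.0884. DESeq2 and edgeR on the recovered reads also called no Tc1/mariner family past both thresholds, with 16 at an unadjusted p under 0.05 in each, and DESeq2 called 4 other TEs. The same TcMar-Tc1 family, rnd-6_family-3467, had the lowest adjusted p with each tool, and by DESeq2 it passed the p threshold (adjusted p = 0.0118) while the edgeR adjusted p was 0.0766. RC embryos had 1805, 1907 and 1933 normalized counts at 37 somites, against 1649, 1692 and 1489.5 at 30 somites, and the log2 change was 0.23 in limma, short of the fold threshold. The median log2 change of Tc1/mariner families was 0.07 and that of all TEs 0.03.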

How the data were processed

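According to the methods of the study, the authors mapped trimmed reads of either species to the genome of A. calliptera by STAR (keeping reads with many hits), found and annotated repeats with RepeatModeler and RepeatMasker, counted reads on TE families with TEcount and normalized the counts with DESeq2. The deposited signal values are these normalized counts, and 100% of them were whole reads times 1 factor per embryo (tolerance 0.01 reads). Strand and position of the copies are not in the counts. TEs in which 2 or more embryos held at least 10 normalized counts were tested on log2(value + 1) with limma 3.58.1 (R 4.3.3, variance trend) in 1 fit of 16 group means and 47 embryos, and with all 50 embryos for 37 somites. A fold change on this scale understates changes of low families. DESeq2 1.42.0 and edgeR 4.0.16, with the deposited size factors, were alternatives, as were other pseudocounts, filters and scalings, each stage fitted alone, a replicate block and leaving out replicate numbers. The fit was tested on simulated data. Members and lists were chosen with earlier results of these data known. Families named are the 6 largest mean species differences each way, the 5 most abundant, the 4 largest changes with stage each way called in both species, and those whose difference varied with stage. A rule for 37 somites named none, and all other families named were chosen after their values were seen. Of 45 genes listed (silencing genes, transposase-derived genes and germ cell markers), 0 had an identifier in the sources used here, so they were not analysed here, and of 8 tissue markers 1 did. The 17 columns of group means and the table of long noncoding RNAs were not used here. Sequences of the families were not used here.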

Additional observations from a re-analysis of the deposited data

Results flagged for a closer look

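The species difference varied with stage, by the moderated F-test in limma, in rnd-5_family-648 (adjusted p = 0.0387) and rnd-6_family-3038 (adjusted p = 0.0387), both TcMar-Tc1. In both, AC embryos of 4 somites held the highest values of the family, and the part that the spread of the AC embryos of 4 somites plays in this was not tested.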

How the results depend on the processing

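Among the named families, the 22 alternatives changed calls more often than directions, and most of these families were chosen for large differences or changes. Over all 187 families tested the direction was less steady. Their median log2 fold change in the mean over stages was 0.06 in the main fit, -0.22 scaled to the TE total and -0.06 with quantile normalization. Of 666 values of the named families under the alternatives, 601 kept their direction and their side of the thresholds, 55 were no longer called, 4 were newly called and 6 reversed, and causes were not tested. The reversals were all among the most abundant families, with small differences: rnd-6_family-1893 (-0.22 with quantile normalization, -0.19 scaled to the TE total), rnd-3_family-393 (-0.073 and -0.20), rnd-1_family-24 (-0.033 scaled to the TE total) and rnd-4_family-1035 (0.025 with embryos matched by percentage of somitogenesis). With no fold threshold, 34, 41, 38, 32, 34, 20, 15 and 24 families passed at 4, 10, 15, 18, 20, 22, 26 and 30 somites, 103 in the mean, 28 with stage in RC and 79 in AC. At an unadjusted p under 0.05 in limma, 61, 65, 55, 48, 59, 40, 36 and 36 of 187 families passed at these stages. Of 1503 TEs 577, 588, 590, 547, 528, 427, 438 and 436 did. In the mean this held for 111 families and 978 TEs, with stage for 48 and 440 in RC and 90 and 652 in AC. With a mean of at least 50 normalized counts required, 12 were called at 4, 12 at 15, 8 at 22 and 7 at 30 somites, 11 in the mean and 9 with stage in RC. Scaled to the TE total, 30 were called at 18, 30 at 20, 14 at 26 and 21 at 30 somites, 36 with stage in RC and 94 in AC, and 1 varied with stage. Quantile normalization gave 7 whose difference varied with stage, as did DESeq2 with 7. At 4 somites fitted alone 3 were called. From 10 to 30 somites 5 changed in RC and 11 in AC. The share of all TEs called under the alternatives is not given here, so their counts have no background beside them. Embryos matched by percentage of somitogenesis gave 23 calls in the mean. Leaving out a replicate number of a species gave 9 to 29 calls at 4, 13 to 18 at 10, 13 to 18 at 15, 5 to 13 at 18, 14 to 20 at 20, 9 to 12 at 22, 5 to 10 at 26 and 9 to 17 at 30 somites, 19 to 22 in the mean, 5 to 16 with stage in RC, 28 to 40 in AC, and 0 to 2 that varied with stage.

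With quantile normalization the species calls were 8 higher and 7 lower at 10, 10 higher and 11 lower at 15, 9 higher and 9 lower at 20 somites. Scaled to the TE total they were 11 higher and 6 lower at 4, 6 higher and 11 lower at 10, 6 higher and 16 lower at 15, 5 higher and 11 lower at 22, 5 higher and 9 lower at 26, and 10 higher and 11 lower at 30 somites.

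Embryos of the same number came from 1 clutch per species and shared nothing else in the labels. Their deviations correlated at -0.115 to 0.159 over 23 pairs, and 10 of the 23 RC embryos correlated best with the AC embryo of their own number. With the replicate block, calls were 20 at 4 somites, 21 in the mean, 13 with stage in RC, 36 in AC, and 2 that varied with stage, and no count moved by over 1.5 times.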
